A study of Homo sapiens with 9 samples.

Results

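The secreted angiogenic factors described here are 10 genes whose proteins leave the cell and act on blood vessels: the vascular endothelial growth factors VEGFA, VEGFB and VEGFC, the related placental growth factor PGF, the platelet-derived growth factor chains PDGFA, PDGFB and PDGFC, angiopoietin-like 4 (ANGPTL4), adrenomedullin (ADM) and endothelin 1 (EDN1). They were picked by name out of the 58735 genes of the count table, and all 10 were found in it. RNAseq was carried out on 786-0 cells, an established human clear cell renal cell carcinoma line that lacks working VHL and HIF1α and relies on HIF2α alone. Parental cells of WT genotype served as controls or received PT2385, an antagonist of HIF2α, at 10 μM, and a hif2a KO line was cultured without the drug. All 3 groups were kept for 48 h in normoxia (21% oxygen), with 3 replicates each. The sources used here do not give a vehicle for the controls, the way in which the knockout was made, or whether the KO line is 1 clone. They also do not say that replicates came from separate cultures, so p-values measure the spread between these libraries, which may be technical.

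HIF transcription factors are the cell's response to low oxygen, and loss of VHL, which normally removes them when oxygen is plentiful, leaves that response running. Secreted angiogenic factors are among the best known of these targets, and the dense vasculature of clear cell renal cell carcinoma is attributed to them. VEGFA, VEGFB, VEGFC and PGF signal through the receptor kinases FLT1, KDR and FLT4 with the neuropilins as co-receptors, PDGF dimers act through PDGFRA and PDGFRB on mural cells and fibroblasts, and ADM and EDN1 are peptides that widen and narrow vessels through G protein-coupled receptors. PT2385 binds HIF2α and blocks its union with its partner HIF1β, whereas a knockout removes the protein, and the comparisons below follow the same genes under both.

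Between 11881000 and 14730081 reads per library were counted on genes. EPAS1, the gene of HIF2α, had 262, 360 and 307 reads in the KO libraries and between 2788 and 3317 in the 6 WT libraries, in keeping with the labels. RNA of HIF1A was 1.73-fold higher in KO than in controls (edgeR adjusted p = 0.00364). With PT2385 HIF1A did not pass (adjusted p = 0.168), but it did with the replicate number as a block (0.00354). ARNT, the gene of HIF1β, passed in no comparison. All 6 markers of renal carcinoma cells (PAX8, PAX2, KRT8, KRT18, VIM and CDH6) were counted in every library. Their levels were not constant: with PT2385 and in KO, PAX2 was lower (1.35-fold and 2.47-fold) and KRT8, KRT18 and CDH6 were higher (CDH6 2.61-fold and 2.05-fold) than in controls. Of 6 endothelial markers, PECAM1, VWF and CLDN5 had 0 reads in all libraries, and the summed level of the list lay between 0.0823 and 0.167 CPM (reads scaled to a common library size) in controls, 0.0807 and 0.279 with PT2385 and 0.277 and 0.540 in KO. Fibroblast and pericyte markers summed to between 3.94 and 5.52 CPM in controls, 4.26 and 6.69 with PT2385 and 6.32 and 8.25 in KO. This came from LUM and RGS5, while DCN had 0 reads throughout. LUM was 2.23-fold higher in KO than in controls (edgeR adjusted p = 0.0144), and the part of these genes in the results was not tested. In bulk RNA, fewer cells that express a gene and less RNA of it per cell cannot be told apart.

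Of the 10 factors, 8 had at least 24 reads in every library and entered the tests, and PGF and ANGPTL4 were counted near the floor of detection, which was set at 3 reads per library. Values are CPM after TMM scaling, which corrects library size for differences in RNA composition, and each pair of groups was compared by the quasi-likelihood F test of edgeR, with Benjamini-Hochberg adjustment over all tested genes. A gene was taken as changed at an adjusted p under 0.05. Upon PT2385 treatment VEGFA, PDGFB, PDGFC, ADM and EDN1 were down-regulated (5 of 8) and 0 of 8 were up-regulated by this test, where 4.62% of all 15089 tested genes were down-regulated, 3.08% up-regulated and 7.70% changed in either direction. The fall was at least 2-fold for VEGFA, ADM and EDN1 (3 of 8), as for 1.25% of all genes, and libraries of both groups did not overlap for 6 of 8, against 26.0%. In KO, 5 of the 8 were lower than in controls, again VEGFA, PDGFB, PDGFC, ADM and EDN1, and PDGFA was higher. In that comparison 30.1% of 15192 genes changed, 15.4% downwards and 14.7% upwards. The fall in KO was at least 2-fold for VEGFA, PDGFB, ADM and EDN1 (4 of 8), as for 3.26% of all genes, and libraries did not overlap for 7 of 8, against 43.8%. The median log2 fold change of the 8 factors was -0.72 with PT2385 and -1.06 in KO, while that of all tested genes was 0.00 in both. Both comparisons use the same 3 control libraries. VEGFA and ADM also belong to the study's own list of most changed genes, which was chosen on these libraries, so their direction with PT2385 is not independent of that list.

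**Figure D1:**
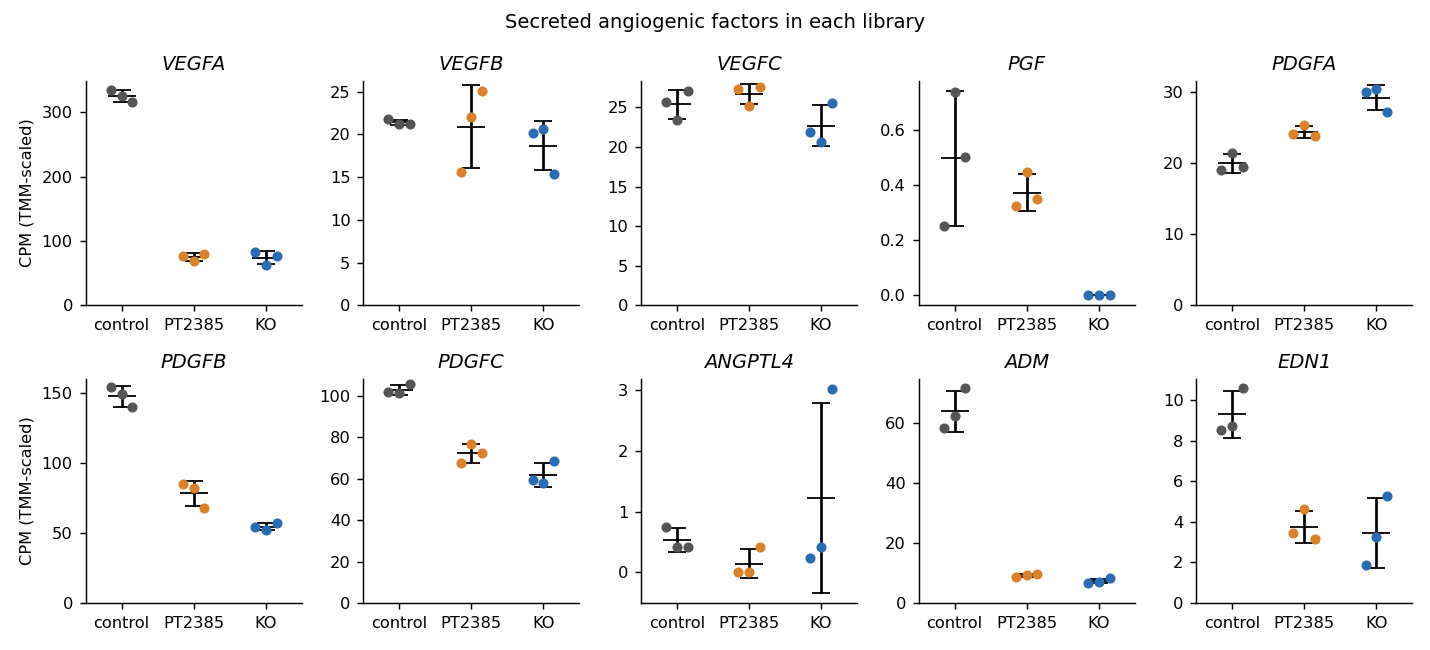
CPM (TMM-scaled, linear axes, 1 panel per gene) of the 10 secreted angiogenic factors in the 3 control, 3 PT2385 and 3 KO libraries, with points for libraries and black bars for the mean and SD. VEGFA and ADM drop to similar levels with PT2385 and in KO, PDGFB drops further in KO, VEGFB and VEGFC stay between 15.4 and 27.5 CPM, and PGF and ANGPTL4 lie at or below 3.02 CPM.

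VEGFA, the principal mitogen of endothelial cells, lies on chromosome 6 of GRCh38 (43770184 to 43786487, forward strand). Its level was 335, 326 and 316 CPM in the control libraries, 76.2, 68.8 and 80.4 CPM with PT2385 and 83.6, 63.0 and 76.2 CPM in KO. The libraries of both treated groups lay below every control and overlapped each other. The level was 4.35-fold lower in each of the 2 comparisons with control. With PT2385 the log2 fold change was -2.12 (standard error 0.0700, 95% confidence interval -2.27 to -1.97, edgeR adjusted p = 1.93e-09). In KO it was -2.12 (standard error 0.0918, interval -2.32 to -1.92, edgeR adjusted p = 3.72e-08). By p, VEGFA stood at rank 8 of all tested genes with PT2385 and at rank 42 in KO. VEGFA shares 188 exonic bases with a gene on the opposite strand that had 9 reads over all 9 libraries, and no other factor shares exonic bases with another gene of the table.

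The study measured VEGFA by RT-qPCR as well, and its primers are shown because the counts and that assay need not cover the same transcripts of this gene.
VEGFA forward primer: cctccgaaaccatgaacttt
VEGFA reverse primer: atgattctgccctcctcctt
Of 26 VEGFA transcripts in GENCODE release 44, 16 contain both primers, with a product of 122 bases in each, and so do 14 of the 20 protein-coding transcripts. Reads were counted on the gene as a whole, so the values given here do not separate these transcripts.

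VEGFB and VEGFC, which act on fatty acid uptake by endothelium and on the growth of lymphatic vessels, respectively, did not pass the test in any of the 3 comparisons. VEGFB (chromosome 11, 64234584 to 64239264) had 21.8, 21.2 and 21.2 CPM in controls. It varied more between replicates in the other groups, with 194, 295 and 359 reads upon PT2385 treatment and 261, 297 and 224 in KO, next to 260, 258 and 254 reads in controls. After scaling this was 15.6, 22.0 and 25.1 CPM with PT2385 and 20.1, 20.6 and 15.4 CPM in KO. All KO libraries thus lay below the controls. The log2 fold change of VEGFB was -0.03 with PT2385 (interval -0.34 to 0.28, edgeR adjusted p = 0.933) and -0.18 in KO (-0.45 to 0.08, adjusted p = 0.292). VEGFC (chromosome 4, about 176683540 to 176792920, rounded) ranged from 23.5 to 27.1 CPM in controls, from 25.2 to 27.5 with PT2385 and from 20.6 to 25.6 in KO, so that the 3 groups overlapped. Its log2 fold changes were 0.07 with PT2385 (interval -0.13 to 0.26, edgeR adjusted p = 0.736) and -0.15 in KO (-0.38 to 0.08, adjusted p = 0.330). The intervals of both genes stop far short of the fall of VEGFA.

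Within a library the number of VEGFA reads per VEGFC read does not depend on scaling between libraries. It was 13.0, 13.9 and 11.7 in controls, 2.80, 2.73 and 2.92 with PT2385 and 3.81, 3.06 and 2.98 in KO. VEGFA reads per VEGFB read fell from 15.2 ± 0.282 in controls to 3.73 ± 0.986 with PT2385 and 4.05 ± 0.949 in KO (mean ± SD, n = 3). Both ratios were lower in each treated or KO library than in every control library.

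PGF, a ligand of FLT1 from the same family, was barely counted, with 3, 9 and 6 reads in controls, 4, 6 and 5 upon PT2385 treatment and 0, 0 and 0 in KO. At this depth 0 reads allow up to 3, and against that floor PGF was at least 2.31-fold lower in KO than in controls and at least 1.74-fold lower than with PT2385. PGF did not pass the filter on low counts. Without that filter its adjusted p was 2.72e-04 for KO against control and 0.783 for PT2385 against control (edgeR), and DESeq2 gave no adjusted p for it.

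Among the PDGF chains, PDGFB and PDGFC fell and PDGFA did not. PDGFB, which recruits pericytes to new vessels (chromosome 22, 39223359 to 39244982, reverse strand), had 154, 149 and 140 CPM in controls, 84.8, 82.2 and 68.0 CPM with PT2385 and 54.5, 52.3 and 56.9 CPM in KO. The 3 groups were ordered without overlap. PDGFB was 1.89-fold lower with PT2385 (log2 fold change -0.92, standard error 0.0851, edgeR adjusted p = 2.23e-05) and 2.68-fold lower in KO (-1.42, standard error 0.0676, adjusted p = 7.58e-08). PDGFC, a chain that is activated by proteolysis outside the cell (chromosome 4, about 156760450 to 156971800, rounded), had 101 to 106 CPM in controls, 67.7 to 76.6 with PT2385 and 58.0 to 68.4 in KO. It was 1.43-fold lower with PT2385 (log2 fold change -0.51, standard error 0.0670, edgeR adjusted p = 4.21e-04) and 1.65-fold lower in KO (-0.72, standard error 0.0739, adjusted p = 3.08e-05).

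PDGFA (chromosome 7, 497258 to 520296), which signals mainly through PDGFRA, moved in the other direction. It had 19.0, 21.5 and 19.5 CPM in controls and 30.0, 30.4 and 27.3 CPM in KO, 1.48-fold higher (log2 fold change 0.56, standard error 0.0943, edgeR adjusted p = 0.00101). The PT2385 libraries lay between these groups at 24.1, 25.4 and 23.8 CPM, all above the controls. With a log2 fold change of 0.29 (interval 0.09 to 0.49) PDGFA did not pass the test upon PT2385 treatment (edgeR adjusted p = 0.0887). This call depends on pairing, since PDGFA was called higher with the replicate number as a block (edgeR adjusted p = 0.0324). The balance of the chains shifted accordingly, from 7.41 ± 0.619 PDGFB reads per PDGFA read in controls to 3.20 ± 0.332 with PT2385 and 1.87 ± 0.190 in KO (mean ± SD, n = 3), and the libraries of the 3 groups did not overlap in this ratio.

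ADM, a vasodilator peptide that also keeps endothelium tight, changed most of the 8 factors tested in both comparisons with control. This small gene (chromosome 11, 10305073 to 10307397, forward strand) had 58.3, 62.3 and 71.6 CPM in controls, 8.55, 9.19 and 9.64 CPM with PT2385 and 6.71, 7.07 and 8.24 CPM in KO. Every KO library lay below every PT2385 library, and these lay far below the controls. ADM was 7.02-fold lower with PT2385 (log2 fold change -2.81, standard error 0.104, edgeR adjusted p = 5.72e-09) and 8.62-fold lower in KO (-3.11, standard error 0.112, adjusted p = 8.30e-09). With PT2385 only 19 of the 15089 tested genes had a lower fold change.

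EDN1, a strong vasoconstrictor peptide (chromosome 6, 12290361 to 12297194, forward strand), had 102, 106 and 127 reads in controls, 43, 62 and 45 with PT2385 and 24, 47 and 77 in KO. All treated and KO libraries lay below the controls, and the KO libraries were widely spread. After scaling it went from 9.29 ± 1.15 CPM in controls to 3.75 ± 0.783 with PT2385 and 3.47 ± 1.73 in KO (SD, n = 3). This was 2.48-fold lower with PT2385 (log2 fold change -1.31, standard error 0.180, edgeR adjusted p = 6.31e-04) and 2.62-fold lower in KO (-1.39, standard error 0.277, adjusted p = 0.00297). Without KO replicate 1 and without KO replicate 3 the log2 fold change in KO was -1.10 and -1.83, and it remained past the test.

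ANGPTL4, a secreted inhibitor of lipoprotein lipase that affects vessel permeability (chromosome 19, 8363289 to 8374370), had 9, 5 and 5 reads in controls, 0, 0 and 6 with PT2385 and 3, 6 and 44 in KO. The 44 reads all come from KO replicate 3, and the other KO libraries lay within the range of the controls or below. ANGPTL4 did not pass the filter on low counts, and without the filter the call for KO against control depended on the method, with an adjusted p of 0.0259 by edgeR and 0.324 by DESeq2.

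Sequence before the start site was compared for factors that fell and factors that did not, since HIF dimers bind the letters ACGTG or GCGTG. EDN1 has several RefSeq starts, and the one that matches the gene start given above is shown. RefSeq promoters (250 bases before to 50 after the start, GRCh38.p14) were at hand for 7 of the 10 factors, with 13 promoters in all, and VEGFA, PDGFB and PDGFC had no entry. At least 1 promoter of each of the 7 held ACGTG or GCGTG on either strand, and 48.4% of all 35116 promoters did so. The first counts factors, some with several promoters, and the second counts single promoters, so the shares are not alike. Promoters of PDGFA (chromosome 7, from 518280) and EDN1 (chromosome 6, from 12289764) held the letters 0 times. ACGTG alone occurred in promoters of EDN1 and ANGPTL4, and in 21.4% of all promoters, while GCGTG occurred in 36.5%. A palindromic site holds ACGTG on both strands. The stretch just before the start is shown for ADM and EDN1, which fell, and for VEGFB and VEGFC, which did not pass the test, with these letters, read on either strand, in capitals.
ADM (chr11:10304878-10305072, forward strand): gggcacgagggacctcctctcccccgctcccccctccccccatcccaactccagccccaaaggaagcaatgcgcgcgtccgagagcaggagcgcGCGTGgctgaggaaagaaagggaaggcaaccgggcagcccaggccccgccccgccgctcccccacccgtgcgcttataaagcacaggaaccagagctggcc
EDN1 (chr6:12290166-12290360, forward strand): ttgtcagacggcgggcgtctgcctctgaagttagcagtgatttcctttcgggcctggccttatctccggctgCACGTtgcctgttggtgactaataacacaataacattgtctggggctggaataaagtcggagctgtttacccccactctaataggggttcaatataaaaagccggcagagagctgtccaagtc
VEGFB (chr11:64234389-64234583, forward strand): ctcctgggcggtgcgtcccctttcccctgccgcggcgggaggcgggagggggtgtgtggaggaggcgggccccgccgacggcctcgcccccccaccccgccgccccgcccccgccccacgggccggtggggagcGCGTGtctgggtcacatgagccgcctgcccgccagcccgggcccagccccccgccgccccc
VEGFC (chr4:176792923-176793117, reverse strand): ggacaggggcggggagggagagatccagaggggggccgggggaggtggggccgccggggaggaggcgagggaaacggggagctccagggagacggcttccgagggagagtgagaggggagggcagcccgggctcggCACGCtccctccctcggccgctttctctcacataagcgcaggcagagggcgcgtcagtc
Each of the 4 stretches holds the letters once. In ADM they begin 101 bases before the start and in EDN1 123 bases before it, against 61 in VEGFB and 59 in VEGFC. Binding was not measured, and the letters say nothing of whether HIF2α is present at these promoters or at more distant sites.

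**Figure D2:**
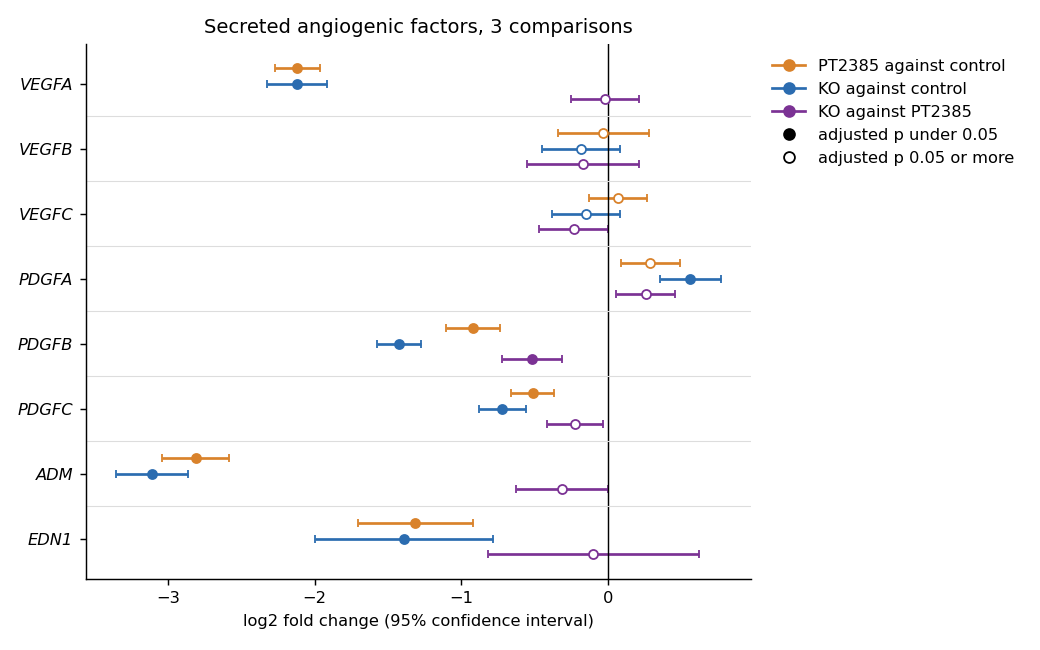
Log2 fold change (horizontal axis) with its 95% confidence interval for the 8 tested factors (rows) with PT2385 against control, KO against control and KO against PT2385, with filled points at an adjusted p under 0.05 (edgeR). VEGFA, PDGFB, PDGFC, ADM and EDN1 lie left of 0 in both comparisons with control, and PDGFB alone is filled for KO against PT2385, at -0.52.

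The antagonist and the knockout were compared directly to ask where the effects on these genes differed in size. Only PDGFB of the 8 factors passed this test, in which 18.8% of 15402 genes did, 10.3% lower and 8.47% higher in KO. It was 1.44-fold lower in KO than with PT2385 (log2 fold change -0.52, interval -0.73 to -0.32, edgeR adjusted p = 0.00256). For VEGFA the difference was -0.02 on the log2 scale (interval -0.25 to 0.21, edgeR adjusted p = 0.926). ADM was lower by 0.31 in KO (interval -0.63 to 0.00, adjusted p = 0.164), with no overlap between the libraries, and PDGFA was higher by 0.26 (0.05 to 0.46, adjusted p = 0.0792), also with no overlap. Groups did not overlap for 3 of the 8 factors, against 35.4% of all tested genes. For PDGFC the difference was -0.23 (-0.42 to -0.04, adjusted p = 0.0987) and for EDN1 -0.10 with a wide interval of -0.82 to 0.62. Without KO replicate 3, VEGFC, PDGFA and PDGFC also passed the test, with log2 fold changes of -0.33, 0.31 and -0.30 and adjusted p of 0.0489, 0.0478 and 0.0250 (edgeR), which makes 4 of 8.

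Levels of different genes were compared per length, as TPM (reads per length, scaled to a common sum). With all annotated exons of a gene merged, the order in controls was PDGFB (154 ± 7.04 TPM), ADM (115 ± 17.0), VEGFA (94.2 ± 4.15), PDGFC (71.7 ± 5.23), VEGFB (45.4 ± 2.40), VEGFC (40.7 ± 4.94), EDN1 (19.1 ± 3.23) and PDGFA (18.2 ± 0.692), with ANGPTL4 and PGF below 1.28 TPM in each library. VEGFB and VEGFC, and likewise EDN1 and PDGFA, overlapped between libraries. VEGFA's place depends on the length chosen, since its merged exons cover 14431 bases and its canonical transcript 3609. With canonical lengths VEGFA came first in controls with 240 TPM, ahead of ADM with 114 and PDGFB with 105. In KO the merged-exon order was headed by PDGFB (56.9 ± 5.06 TPM), followed by PDGFC (43.0 ± 5.93), VEGFB (39.3 ± 4.62) and VEGFC (36.2 ± 5.80). Libraries of PDGFC, VEGFB and VEGFC overlapped, so the order among them is not settled. ADM had 13.2 ± 1.97 in KO, below PDGFA with 26.5 ± 0.682. With canonical lengths VEGFA came first in KO as well, with 54.5 TPM against 38.7 for PDGFB and 35.9 for PDGFC.

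Summed over the 10 factors, the level per length fell from 560 ± 35.6 TPM in controls to 301 ± 5.35 with PT2385 and 246 ± 22.1 in KO (SD, n = 3). VEGFA gave 16.8% of this sum in controls, 7.57% with PT2385 and 8.71% in KO, and with canonical lengths these shares were 39.1%, 21.2% and 23.6%. ADM gave 20.5% ± 1.94, 5.70% ± 0.270 and 5.34% ± 0.393. The share of VEGFB was higher, with 15.4% ± 3.30 with PT2385 and 16.2% ± 3.09 in KO against 8.11% ± 0.186 in controls. For PDGFA it was 7.73% ± 0.188 and 10.8% ± 1.07 against 3.25% ± 0.241. PDGFC, whose level fell, also had a higher share, with 17.5% ± 0.583 and 17.5% ± 0.864 against 12.8% ± 0.137. A higher share of the smaller sum therefore does not set apart the factors whose level did not fall.

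**Figure D3:**
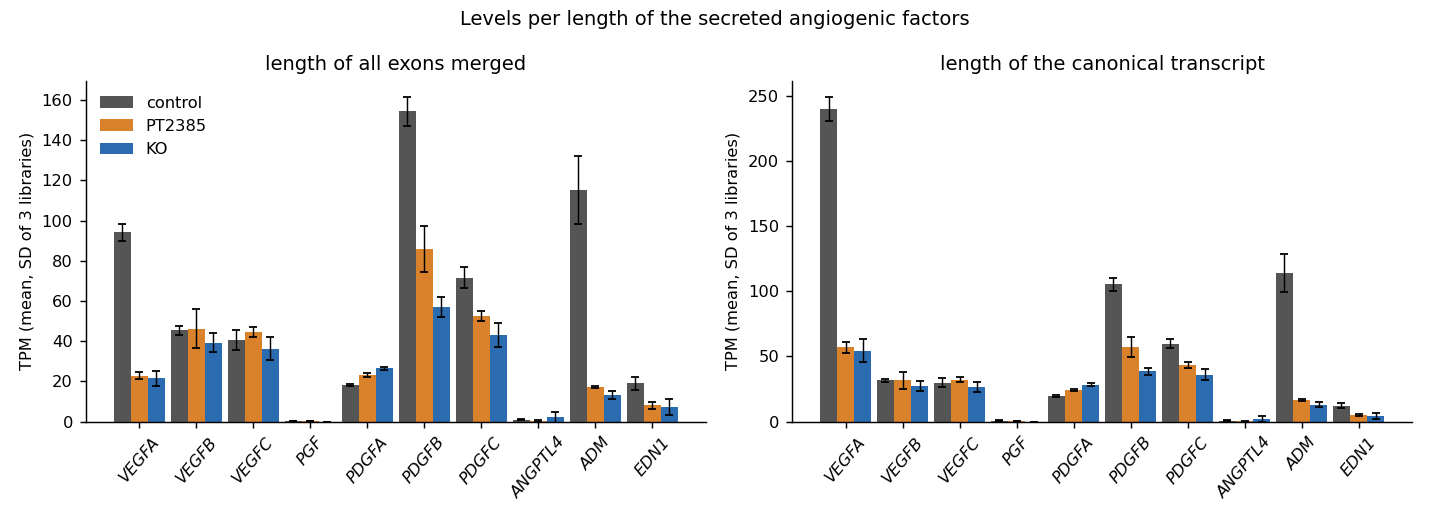
TPM (mean of 3 libraries, error bars SD, bars start at 0) of the 10 factors in control, PT2385 and KO cells, with the length of all merged exons on the left and of the canonical transcript on the right. VEGFA lies below PDGFB and ADM in controls on the left (94.2 TPM) and above them on the right (240 TPM), while PDGFA is higher with PT2385 and in KO than in controls with either length.

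For each factor that passed the test with PT2385, the 3 well-counted genes (mean of at least 100 reads) with the most similar log2 CPM over the 9 libraries were taken, as a description. The libraries fall into 3 groups and share their depth and scaling, so these correlations mostly reflect the group means. VEGFA was followed by KLF7, SLCO4A1 and RNASET2 (Pearson's r from 0.992 to 0.993, n = 9), ADM by APOL1 (r = 0.999), IRS2 and POU5F1, and PDGFB by ITPR1 (0.997), GNA13 and CHML. Likeness was closest for ADM and weakest for EDN1, whose nearest genes BRINP1, TENM2 and PGBD5 had r of 0.953 to 0.959. EDN1 itself had a mean below the 100 reads asked of the other genes, and whether this lowers its r was not tested. RNASET2, APOL1, IRS2, POU5F1 and ITPR1 are also in the study's list of most changed genes. PDGFC lay between, with ZDHHC7, SYTL3 and PLK4 (0.981 to 0.985).

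The genes that receive, mature or oppose these factors were described from lists of 13 receptors, 8 processing enzymes, 19 other ligands and 8 inhibitors. Of the receptors, FLT1, FLT4, PDGFRA, RAMP2, RAMP3 and EDNRB had 0 reads in all 9 libraries, which allows up to 3 per library, and KDR had 4 reads in all. The test covered 3 of the 13, of which NRP1 was higher in both comparisons with control and PDGFRB, at the floor in KO, was called lower there. With lists of this size the counts here and below are to be read against the 7.70% of all tested genes that changed with PT2385 and the 30.1% in KO. The neuropilins, co-receptors of the VEGF proteins and of semaphorins, were well counted. NRP1 had 90.5, 85.8 and 85.7 CPM in controls, 129, 126 and 130 with PT2385 and 224, 288 and 212 in KO, and the 3 groups did not overlap. It was 1.47-fold higher with PT2385 (log2 fold change 0.55, standard error 0.0604, edgeR adjusted p = 9.46e-05) and 2.79-fold higher in KO (1.48, standard error 0.105, adjusted p = 1.79e-06), and KO exceeded PT2385 by 0.91 (adjusted p = 1.92e-04). NRP2, at 356 to 412 CPM in controls, did not pass the test in any of the 3 comparisons. PDGFRB, the receptor of PDGFB, was counted at 27, 31 and 28 reads in controls, 23, 37 and 31 with PT2385 and 2, 2 and 0 in KO. With KO at the floor it was at least 11.1-fold lower than in controls and at least 10.5-fold lower than with PT2385, while PT2385 and controls differed by -0.08 on the log2 scale (interval -0.59 to 0.44, edgeR adjusted p = 0.894). PDGFRB passed the filter on low counts only through the groups in which it was counted, so that its call in KO is no independent test. CALCRL, the receptor of ADM, had at most 9 reads in a library.

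Of the 8 processing enzymes 5 were tested. ECE1, which cleaves the precursor of endothelin, fell with PT2385 (1 of 5, log2 fold change -0.41, standard error 0.0676, edgeR adjusted p = 0.00268). In KO, FURIN and PCSK5, proprotein convertases that cut growth factor precursors, were lower (2 of 5, where 15.4% of all genes were lower). PCSK5 had 167, 162 and 201 CPM in controls, 131, 148 and 165 with PT2385 and 19.4, 27.9 and 29.8 in KO. It was 6.79-fold lower in KO (edgeR adjusted p = 1.04e-07), and the KO libraries were also far below those of PT2385 (log2 fold change -2.52, adjusted p = 1.70e-06). With PT2385 its log2 fold change was -0.26 (interval -0.47 to -0.05, adjusted p = 0.141). FURIN was 1.54-fold lower in KO (adjusted p = 6.58e-05), with a log2 fold change of 0.06 for PT2385 (adjusted p = 0.716). For PAM, which amidates ADM, the log2 fold change was -0.29 with PT2385 (adjusted p = 0.0527) and -0.12 in KO (adjusted p = 0.246).

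The other ligands were mostly silent, and 6 of the 19 were tested with PT2385 (2 lower) and 4 in KO (1 lower, 1 higher), against 4.62% of all genes lower with PT2385 and 15.4% lower and 14.7% higher in KO. EDN2, another endothelin, fell in both comparisons, from 158, 152 and 127 reads in controls to 35, 53 and 41 with PT2385 and 56, 45 and 76 in KO. It was 3.77-fold lower with PT2385 (edgeR adjusted p = 1.90e-05) and 2.84-fold lower in KO (adjusted p = 1.36e-04). FGF2, a fibroblast growth factor that stimulates endothelium, was 1.49-fold higher in KO (log2 fold change 0.58, standard error 0.0931, adjusted p = 7.72e-04) while with PT2385 its log2 fold change was 0.14 (adjusted p = 0.415). FGF2 shares 804 exonic bases with NUDT6 on the opposite strand (696 reads over all libraries, against 13048). The chemokine CXCL8 was 1.56-fold lower with PT2385 (edgeR adjusted p = 0.00478). In KO it ranged from 101 to 705 reads against 302 to 347 in controls, and did not pass the test (adjusted p = 0.946). PDGFD, the remaining PDGF chain, had 6, 4 and 6 reads in controls, 12, 11 and 13 with PT2385 and 0, 0 and 0 in KO, where it was at least 2.07-fold lower than in controls.

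Of the 8 secreted inhibitors 3 were tested, of which 1 was higher with PT2385 and 3 in KO, against 3.08% and 14.7% of all genes. THBS1, the gene of thrombospondin 1, went from 963, 1231 and 1439 CPM in controls to 1505, 1775 and 2170 with PT2385 and to 1715, 1619 and 3098 in KO, so that both groups lay above the controls. Its log2 fold change was 0.58 with PT2385 (edgeR adjusted p = 0.0237) and 0.84 in KO (adjusted p = 0.0129), but with DESeq2 neither passed (adjusted p = 0.0996 and 0.0702), and leaving out control replicate 1, control replicate 2 or PT2385 replicate 2 gave adjusted p of 0.0919, 0.0948 and 0.0728 for PT2385. Without control replicate 1 the call in KO was lost as well (adjusted p = 0.0614). COL18A1, whose C-terminal fragment is endostatin, was 1.29-fold higher in KO (edgeR adjusted p = 7.99e-04), and the protease ADAMTS1, which binds VEGFA, was 1.31-fold higher in KO (adjusted p = 0.00279). With PT2385 their log2 fold changes were 0.15 and 0.21 (adjusted p = 0.211 and 0.181). These calls depend on whether replicate numbers are taken as pairs: with the replicate number as a block, the edgeR adjusted p for PT2385 was 0.0401 for COL18A1, 0.00420 for ADAMTS1 and 2.59e-08 for THBS1, so that all 3 were called higher, and PCSK5 (0.00413) and PAM (0.00137) were called lower. COL18A1 shares 1563 exonic bases with SLC19A1 on the opposite strand (14721 reads over all libraries, against 37398), and without a known strand setting such reads cannot be told apart. SERPINF1 and TIMP3 had 0 reads in all libraries.

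**Figure D4:**
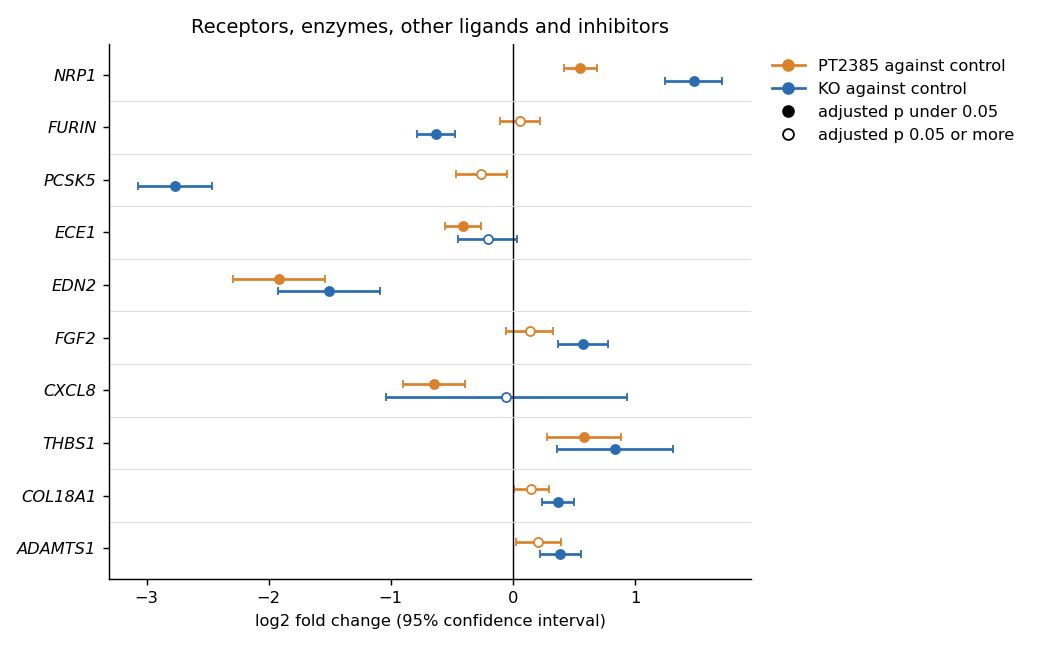
Log2 fold change with its 95% confidence interval for the listed receptors, enzymes, ligands and inhibitors that passed the test in at least 1 comparison with control, with filled points at an adjusted p under 0.05 (edgeR), PDGFRB left out because its KO libraries lie at the floor. NRP1 and THBS1 lie right of 0 and EDN2 left of 0 in both comparisons, and PCSK5 lies at -2.76 in KO (filled) and at -0.26 with PT2385 (open).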

How the data were processed

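RNA from 786-0 cells was sequenced in 9 libraries, 3 each of control, PT2385-treated and KO cells. According to the methods and the labels, the authors checked reads with FastQC, trimmed them with cutadapt, aligned them to GRCh38 (hg38) with STAR and counted them per gene with featureCounts. Versions, annotation release and strand setting are not given in the sources used here. The deposited values are raw counts per gene, and each of the 9 columns was matched to a sample by its title, with 0 columns left over. Of 58735 identifiers, 58207 were paired with a symbol through GENCODE release 44.

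Each pair of groups was fitted with edgeR 4.0.16 in R 4.3.3 (TMM, filterByExpr with its minimum of 10 counts, quasi-likelihood F test, Benjamini-Hochberg over all tested genes). The steps were tested on simulated data. An exact permutation test with 3 against 3 libraries cannot give a p below 0.1. Confidence intervals of 95% come from the model's standard error, and floors cover counting error only. Replicates of a group differed by more than counting error (mean chi-square per gene of 3.00 to 17.0), so no library was counted as a repeat of another. TPM were computed from the counts with merged exon lengths.

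The factors, lists and tests were chosen with earlier results of these data known. Named genes are the 10 factors, listed genes that passed a test against control, EPAS1, HIF1A and ARNT, and the 3 most similar genes of each factor that passed with PT2385. Genes near the floor or at 0, list members named without passing, and marker genes were named after their values were seen. The alternatives were DESeq2 1.42.0, other scalings, filters, thresholds and fits, the replicate number as a block, and leaving out each library. Canonical transcript lengths were added after the data were seen.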

Additional observations from a re-analysis of the deposited data

How the results depend on the processing

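Each of the 384 refits of the 8 tested factors was set beside its own comparison, and 371 kept direction and side of the threshold, 4 lost a call, 4 gained one and 5 changed sign. The changes of sign were those of values near 0, with ranges over left-out libraries of -0.18 to 0.13 for VEGFB with PT2385, and of -0.11 to 0.087 for VEGFA and -0.54 to 0.19 for EDN1 in KO against PT2385. The number of factors called remained 5 with PT2385 and 6 in KO with each library left out, and went from 1 to 4 in KO against PT2385. For that comparison 0 factors were called when a change above 1.5-fold was tested (glmTreat). Without the filter on low counts 3 of the 10 factors were called: PDGFB and, near the floor, PGF and ANGPTL4. The adjusted p of PGF was 0.00316 by edgeR, and DESeq2 gave none. That of ANGPTL4, with 3, 6 and 44 reads in KO, was 3.97e-06 by edgeR and 0.396 by DESeq2.

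Calls over all genes ranged from 574 to 1451 for PT2385 against control with each library left out (1162 with all; 654, 581 and 728 without control replicates 1, 2 and 3 and 574 without PT2385 replicate 2), from 3344 to 5094 for KO against control (4566) and from 1836 to 3190 for KO against PT2385 (2897; 1836 without PT2385 replicate 2). At an adjusted p under 0.01 they were 516, 2788 and 1657, and with glmTreat 172, 882 and 528. Of the listed receptors, enzymes, ligands and inhibitors, 5 were called with PT2385, 8 without the filter, 3 with all 9 libraries in 1 model and 1 with glmTreat. Of these, 9 were called in KO, 4 with glmTreat, and 7 in KO against PT2385, 4 with glmTreat and 4 with at least 10 counts in every library. With each library left out these counts were 4 to 7, 8 to 12 and 6 to 8. In the main fit 3 receptors, 5 enzymes, 6 other ligands and 3 inhibitors were tested with PT2385. For KO against control these were 3, 5, 4 and 3, and for KO against PT2385 3, 5, 6 and 4. Of all tested genes, 7.70%, 30.1% and 18.8% were called in the 3 comparisons. VEGFA's share of the summed TPM was 16.6% to 17.2% in controls, 7.32% to 7.98% with PT2385 and 8.10% to 9.23% in KO with each library left out, and 39.1%, 21.2% and 23.6% with canonical lengths, which changes the divisor of each gene.

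Samples of different groups share replicate numbers. Over 10140 well-counted genes, deviations from the group means of same-numbered libraries correlated by 0.06 to 0.48, above 0.1 in 7 of 9 pairs, and 15 of 18 best matches had the same number. Over all 15655 genes 6 of 9 pairs were above 0.1. For PT2385 and control alone all 3 pairs were above 0.1 over the well-counted genes (0.45, 0.14 and 0.43) but not over all genes (0.22, 0.033 and 0.21). Since not every pair passed the cutoff of 0.1, which is a choice, pairing was not assumed. Calls for PT2385 against control depend on this, with 1162 genes called without the block. With the replicate block 2305 genes were called for PT2385 against control, with 6 factors (PDGFA added, adjusted p = 0.0324) and 9 listed genes (PCSK5, PAM, COL18A1 and ADAMTS1 added), and the block changed no call of a factor in the other comparisons. Depth limits PGF and ANGPTL4, whose counts lie near 3 reads.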

Other observations

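KO replicate 3 had the highest level of several secreted genes among the KO libraries. CXCL8 had 301, 101 and 705 reads in KO replicates 1, 2 and 3, against 302 to 347 in controls. THBS1 had 22229, 23361 and 45105 reads, EDN1 24, 47 and 77, and ANGPTL4 3, 6 and 44, at total counts of 12893484, 14430108 and 14730081. VEGFA (1083, 909 and 1109 reads), ADM (87, 102 and 120) and PDGFB (706, 755 and 828) differed less between the same libraries. Replicate 3 also had the most THBS1 reads in controls (11489, 14958 and 17211) and with PT2385 (18666, 23764 and 31071). For EDN1 this held in controls (102, 106 and 127) but not with PT2385 (43, 62 and 45). It did not hold in controls for CXCL8 (343, 347 and 302) or ANGPTL4 (9, 5 and 5). Deviations of KO replicate 3 correlated with those of control replicate 3 (0.48) and PT2385 replicate 3 (0.42). These genes were picked after their values were seen, and what sets replicate 3 apart, in KO or in all groups, was not tested.

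Reads of ADM per EDN1 read fell from 6.90 ± 0.209 in controls to 2.51 ± 0.543 with PT2385 and 2.45 ± 1.06 in KO (mean ± SD, n = 3), so that ADM lost more of its level than EDN1 in both. The ratio of PDGFB to PDGFC reads was 1.44 ± 0.103 in controls, 1.09 ± 0.159 with PT2385 and 0.885 ± 0.0471 in KO, with every KO library below every PT2385 library and these below every control.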
